A study of Mus musculus with 15 samples.

Results

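The genes described here are 58 cytokines, growth factors, chemokines, NF-kB subunits, IkB proteins and NF-kB feedback or target genes, chosen by symbol in a table of 26366 genes. Of these, 54 had a row in the table, and Il4, Il18, Csf2 and Ccl8 were not analysed here. They comprised 10 interleukin genes, 8 genes for TNF, colony-stimulating and growth factors, 11 CC chemokines, 7 CXC chemokines, 8 NF-kB subunits and IkB proteins, and 10 NF-kB feedback and target genes. Eosinophils of 7 wild-type C57BL/6 mice were profiled by RNA sequencing in 15 libraries, and all mice were at a stage labelled pre-cancer. Each mouse had received 4-NQO, which induces tumors of mouth and esophagus, over 8 weeks, followed by 8 weeks of propylene glycol, so the treatment is shared by all libraries and none came from untreated mice. Eosinophils of the esophagus (n = 7) and of the colon (n = 4) were taken from the lamina propria by immunomagnetic positive selection. A further group (n = 4) is labelled bone marrow, and whether these cells were isolated from marrow or grown from it is not stated in the labels. Mice 5 to 8 gave all 3 tissues, whereas mice 1, 2 and 3 gave an esophagus library alone. Mice 1, 2, 5 and 6 were F and shared cage 1, and mice 3, 7 and 8 were M and shared cage 2, so sex and cage cannot be told apart.

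NF-kB transcription factors are dimers of Rel-family proteins held in the cytoplasm by IkB proteins. Signals from TNF, from interleukin 1 family cytokines or from microbial products lead to IkB degradation, and the freed dimers bind kB motifs in the promoters of cytokine and chemokine genes. They also induce their own inhibitors, among them Nfkbia and Tnfaip3, which close a feedback loop. Eosinophils, granulocytes of type 2 immunity, are known as a source of stored and newly made cytokines and chemokines, and are themselves drawn into tissue by the eotaxins Ccl11 and Ccl24.

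The promoters of the 4 members with the largest fold changes among the 23 that had enough counts to be tested are shown because kB motifs are the sequence element that links the cytokine genes with the NF-kB genes of the group. The windows run from 250 bases before to 50 bases after the annotated start (RefSeq, GRCm38.p6), are printed 5′ to 3′ on the gene's strand, and have matches to the textbook kB motif in capitals. They lie at chr5:90903649-90903948 on the plus strand for Cxcl2, chr5:30012864-30013163 on the plus strand for Il6, chr12:55492598-55492897 on the minus strand for Nfkbia and chr2:129371090-129371389 on the minus strand for Il1b.
Cxcl2: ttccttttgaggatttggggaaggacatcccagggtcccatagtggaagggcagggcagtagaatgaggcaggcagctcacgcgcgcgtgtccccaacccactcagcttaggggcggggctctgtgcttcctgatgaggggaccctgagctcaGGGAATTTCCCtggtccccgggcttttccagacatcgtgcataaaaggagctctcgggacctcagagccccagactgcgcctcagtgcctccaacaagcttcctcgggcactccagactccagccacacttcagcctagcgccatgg
Il6: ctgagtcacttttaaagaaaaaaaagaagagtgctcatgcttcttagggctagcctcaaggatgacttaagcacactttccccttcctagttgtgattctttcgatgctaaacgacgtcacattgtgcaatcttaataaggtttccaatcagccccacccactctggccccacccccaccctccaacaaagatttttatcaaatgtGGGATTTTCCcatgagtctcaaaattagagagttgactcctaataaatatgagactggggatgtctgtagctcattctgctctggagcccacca
Nfkbia: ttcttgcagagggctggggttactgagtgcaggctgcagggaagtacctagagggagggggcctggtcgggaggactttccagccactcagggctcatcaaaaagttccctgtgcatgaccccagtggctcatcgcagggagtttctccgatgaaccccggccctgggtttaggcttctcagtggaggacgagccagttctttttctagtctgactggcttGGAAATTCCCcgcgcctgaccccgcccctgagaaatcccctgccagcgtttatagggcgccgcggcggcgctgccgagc
Il1b: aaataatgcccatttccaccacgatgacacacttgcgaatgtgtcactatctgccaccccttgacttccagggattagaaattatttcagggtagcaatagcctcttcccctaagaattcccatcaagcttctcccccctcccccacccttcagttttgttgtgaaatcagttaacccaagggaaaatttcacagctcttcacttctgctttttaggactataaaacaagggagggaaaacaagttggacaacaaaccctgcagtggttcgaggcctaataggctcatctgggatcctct
Cxcl2 held 2 matches on opposite strands that overlap in all but 1 base, starting at positions -97 and -96 from the start site. Il6 held 1 match at -44, and Nfkbia held 1 on the reverse strand at -29. The Il1b window held none, which says only that these letters are not in this window. Both strands were searched. Of 40 members with a promoter entry, 22 (55%) held a match, against 2581 of 27025 genes (9.55%). All 5 NF-kB subunit and IkB genes with an entry held one (Bcl3, Nfkb2, Nfkbia, Nfkbie and Rel), as did 4 of 6 CXC chemokines (Cxcl1, Cxcl2, Cxcl3 and Cxcl10) and 1 of 5 CC chemokines (Ccl9). Many members were listed because they are known NF-kB targets, so this share describes the list and is not a result of the libraries.

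Total counts ranged from 85677 to 612386 per library, and 284 to 1090 of these fell on the members. Where a gene had no count, up to 3 counts remain possible, a floor of 4.9 to 35 CPM (counts scaled to a library total of 1000000), and such floors cover counting error only. The shallowest libraries were from esophagus. Esophagus libraries had 17 to 43 of the 54 members detected, colon libraries 48 to 54 and those of bone marrow 38 to 48. The esophagus library of mouse 2, at 371218 counts, was deeper than every bone marrow library and held 43 members. At similar totals, the esophagus of mouse 8 (195611 counts) had 14515 genes and 32 members detected. The bone marrow of mouse 5 (189336 counts) had 20412 genes and 45 members. Mitochondrial counts stood apart in 3 libraries, the colon of mouse 8 (7.52%) and the esophagus of mice 1 and 3 (3.87% and 2.84%), against 0.297% to 1% in the others. The labelled cell type had thin support in its markers. The 12 eosinophil markers summed to 113 to 479 CPM in esophagus, 146 to 207 CPM in colon and 83.9 to 164 CPM in bone marrow, and Epx and Ear2 were at 0 in all esophagus libraries, as were Prg2 and Prg3 in all bone marrow libraries. Ccr3, the eotaxin receptor, averaged 89.4 ± 53.4 CPM (SD, n = 7) in esophagus, 49.9 ± 13.6 CPM (SD, n = 4) in colon and 27.4 ± 21 CPM (SD, n = 4) in bone marrow. In bulk RNA, fewer cells of a type and less RNA per cell cannot be told apart.

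Counts also fell on genes that leukocytes are not known to use. Olfactory and vomeronasal receptor genes, called smell receptor genes here, number 1422 in the table, and 36.5% to 98.7% of them had a count in a given library. Member levels were therefore read as counts per exonic kilobase, expressed as a percentile of the smell receptor genes of the same library, where 50 is the level of the median smell receptor gene. Averaged over the 15 libraries, 10 of the 54 members lay above 50. Il1b lay highest at 73.2, followed by Cflar (70.1), Cxcl2 (69), Rel (66.8), Sod2 (63.5) and Ccl2 (62.3). The neighbours in this order were separated by less than the spread between libraries. With the longest transcript as the length, 21 members lay above 50, and Cflar (89.3), Traf1 (82.9) and Sod2 (82.1) lay above Il1b (80.7). Against autosomal coding genes 32 members lay above 50, with Cflar (84.7) above Il1b (83.1). Summed over the members, counts per kilobase were 0.687 to 1.36 times those of smell receptor genes in esophagus, 0.47 to 0.719 times in colon and 0.755 to 1.08 times in bone marrow. The median over the 15 libraries was 0.775 for the members and 0.653 for the other autosomal coding genes, whose range was 0.477 to 0.87. Split by tissue, the order was not the same throughout. Esophagus medians were 0.868 for members against 0.64 for coding genes. Bone marrow medians were 0.77 against 0.805, with members the lower. Colon medians were 0.662 against 0.607, and the colon range of coding genes (0.477 to 0.72) nearly matched that of members. A median of 7.41% of the members and 2.71% of coding genes lay over the 95th percentile of smell receptor genes.

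**Figure D1:**
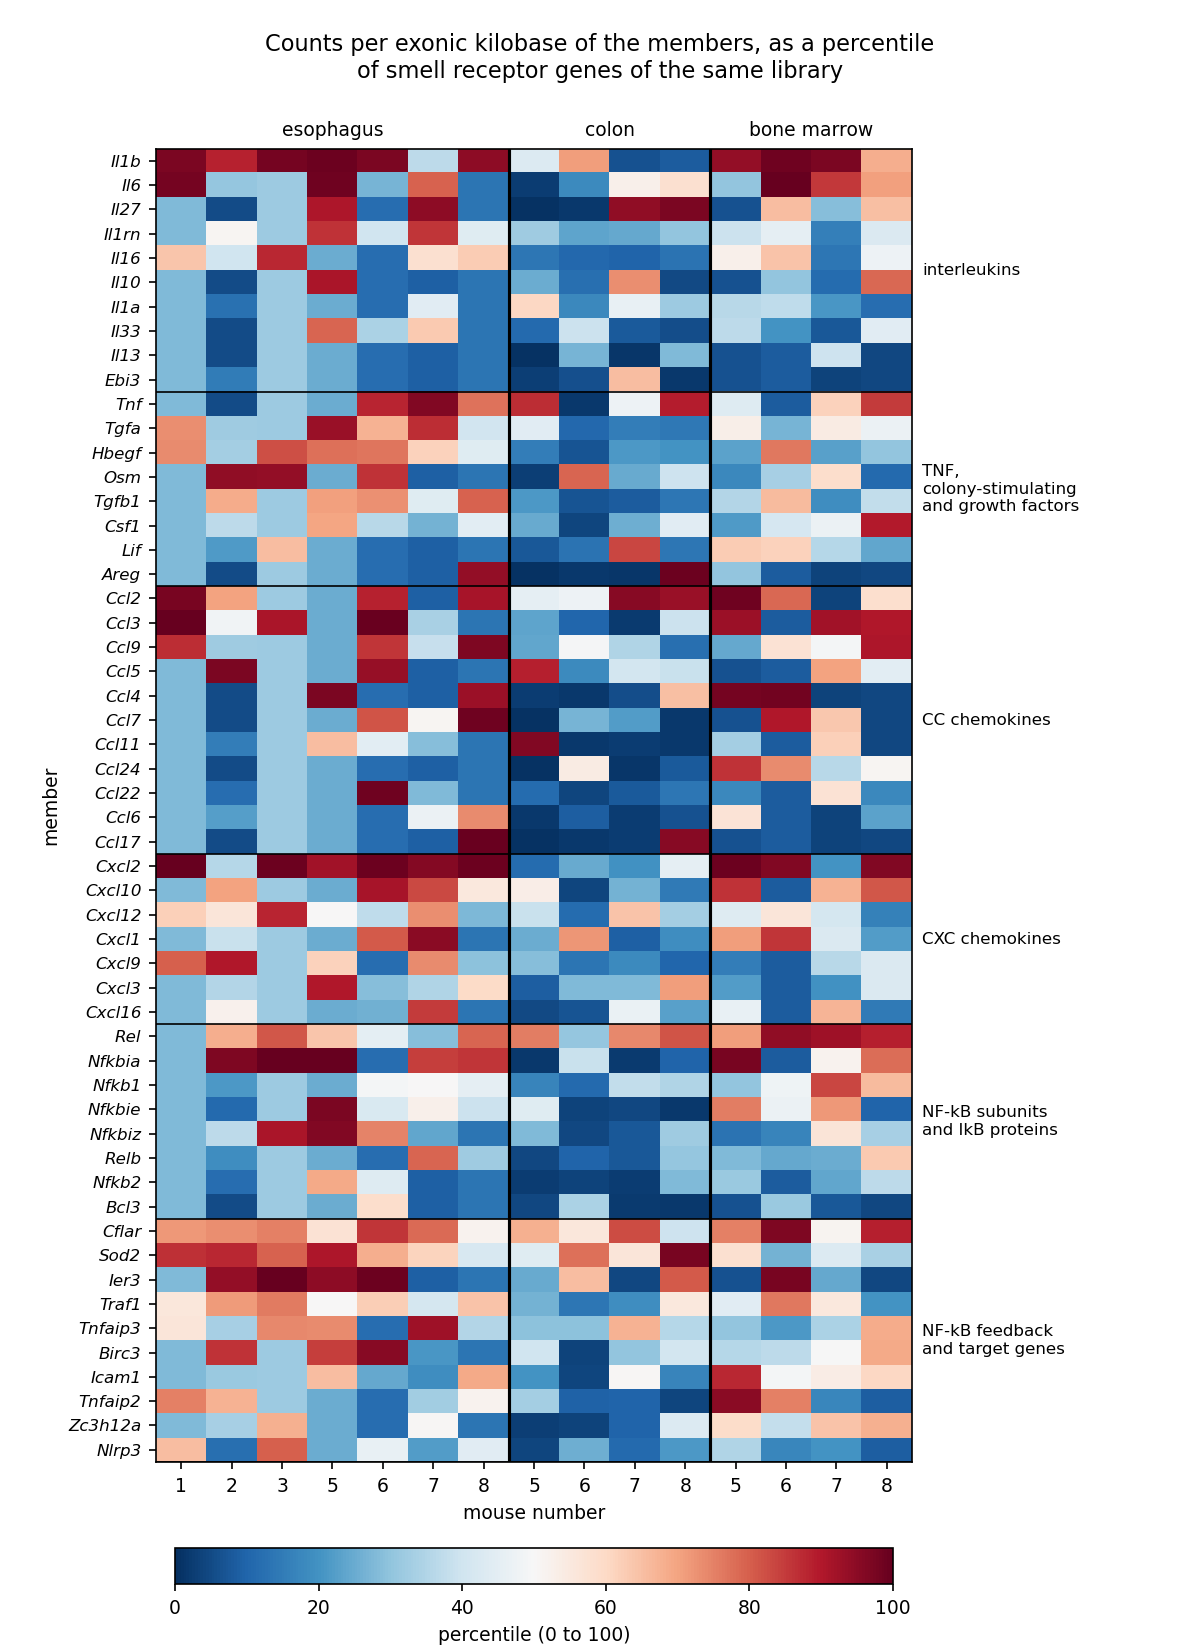
Each cell is the counts per exonic kilobase of 1 member (down) in 1 library (across, by tissue and mouse number), as a percentile of 1422 smell receptor genes of that library. Il1b and Cxcl2 are dark red in most esophagus and bone marrow libraries and mostly pale or blue in colon, while most other members are high in single libraries; a uniform light blue column marks members at 0 in a shallow library.

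Cxcl2, a neutrophil-attracting chemokine, had the lowest p-value of the tested members between esophagus and colon. It reached 16.2, 133 and 438 CPM (lowest, median and highest) in esophagus and had a count in all 7 libraries. In bone marrow it measured 121, 58.2, 10.5 and 56.7 CPM in mice 5, 6, 7 and 8, and in colon 15.4, 22, 18 and 19.6 CPM. All colon libraries were low, and 6 of the 7 esophagus libraries, all but that of mouse 2, lay above the highest colon value. The same 6 lay between the 92.1 and 99.9 percentile of smell receptor genes, whereas the colon libraries lay between 11.5 and 45.5. The log2 fold change was 2.86 (SE 0.84) for esophagus over colon and did not pass the edgeR quasi-likelihood test (adjusted p = 0.316), nor did 0.96 (SE 0.77) for esophagus over bone marrow (adjusted p = 0.999) or -1.90 (SE 0.88) for colon against bone marrow (adjusted p = 1). DESeq2 called the esophagus over colon difference, at 3.19 (SE 0.72, adjusted p = 0.0121). It was 2.82 (SE 1.24) within F mice and 2.68 (SE 1.26) within M mice, both with an edgeR adjusted p of 1.

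Il1b, the secreted interleukin 1 that inflammasomes activate, was distributed in a similar way. Its values were 13.2, 86.9 and 236 CPM (lowest, median and highest) in esophagus. Bone marrow libraries of mice 5 to 8 gave 42.3, 116, 59.4 and 24.3 CPM, and colon libraries 25, 39.6, 10.8 and 4.9 CPM. The esophagus library of mouse 7 was low and fell inside the colon range, and the others lay above every colon library. The esophagus over colon log2 fold change was 2.22 (SE 0.92, edgeR adjusted p = 1), with 1.69 (SE 1.22) within F mice and 2.85 (SE 1.60) within M mice. Esophagus and bone marrow differed by 0.33 (SE 0.84, edgeR adjusted p = 0.999).

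Nfkbia encodes IkBa, the inhibitor that NF-kB induces to end its own activity. In esophagus it was listed at 0 in mice 1 and 6, at 1004 CPM in mouse 3, at 281 CPM in mouse 5 and at 39.6 to 64.7 CPM in mice 2, 7 and 8. Colon libraries of mice 5 to 8 held 1.92, 22, 3.6 and 4.9 CPM, and bone marrow libraries 47.5, 0, 17.5 and 24.3 CPM. The esophagus libraries spread over both ends of the range and so overlapped with the other tissues. The esophagus library of mouse 3 alone gave 86 of the 184 Nfkbia counts (46.7%). The log2 fold changes were 4.25 (SE 1.25, edgeR adjusted p = 0.488) over colon and 2.48 (SE 1.13, edgeR adjusted p = 0.936) over bone marrow. Without the esophagus library of mouse 3 they were 2.97 and 1.23 (adjusted p = 1 for each), the lowest values of the fits that left out 1 library, which reached 5.04 and 3.08. Over colon, the edgeR adjusted p was 0.0276 without colon mouse 6, and 0.0366, 0.0322 and 0.0314 without bone marrow mouse 6, 7 or 8. The value was 2.57 (SE 1.90) within F mice and 5.42 (SE 1.47, edgeR adjusted p = 0.658) within M mice, which include mouse 3.

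**Figure D2:**
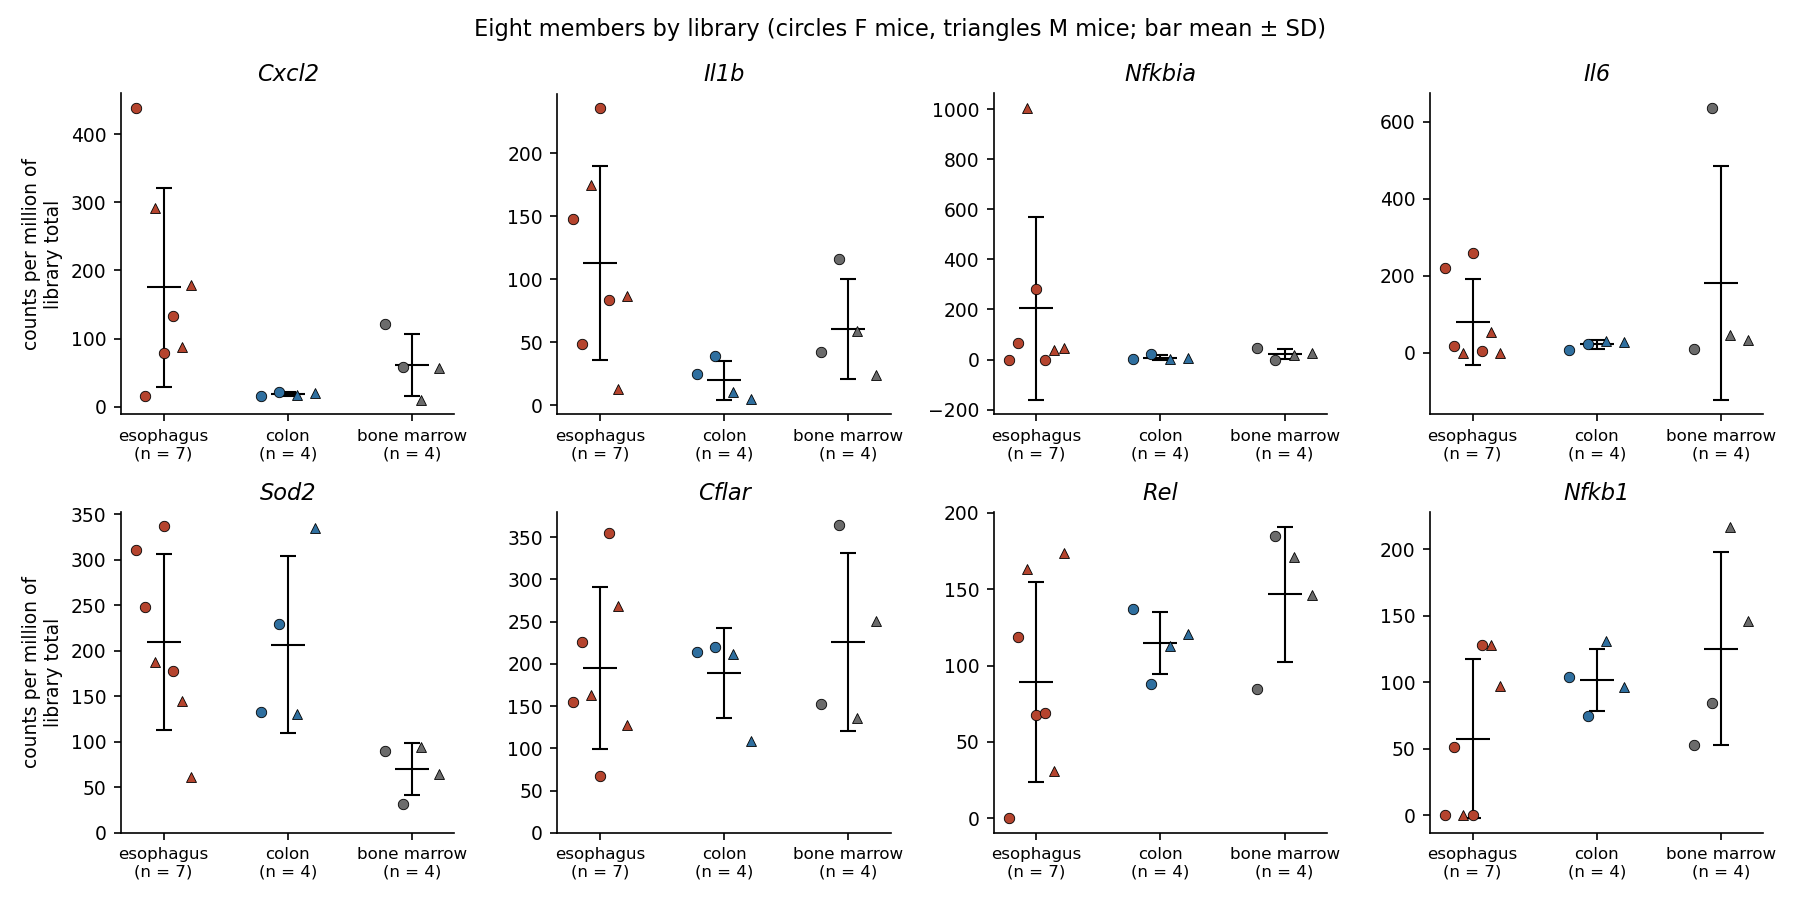
CPM of the library total (y axis, linear, own scale per panel) of 8 members in esophagus, colon and bone marrow libraries, with circles for F mice, triangles for M mice and bars for mean ± SD, which reach below 0 where the SD exceeds the mean. Cxcl2, Il1b and Nfkbia are low in all 4 colon libraries, and single libraries set the means of Nfkbia (1004 CPM, esophagus of mouse 3) and Il6 (635 CPM, bone marrow of mouse 6).

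Summed markers of neutrophils and dendritic cells reached higher in esophagus than in colon, carried by a few genes of each list. A higher maximum was not particular to these cell types, and it was taken over 7 esophagus libraries against 4 of colon. The highest sums of eosinophil, T and NK cell, B and plasma cell, squamous epithelium and endothelium markers were 479, 301, 385, 373 and 490 CPM in esophagus. In colon they were 207, 239, 260, 223 and 284 CPM. Those of mast cell and basophil, colon epithelium and fibroblast markers were lower in esophagus (123, 455 and 387 CPM, against 133, 1720 and 471 CPM). Median sums in esophagus and colon were 101 and 52.1 CPM (neutrophil), 567 and 299 CPM (dendritic cell) and 215 and 161 CPM (eosinophil). They were 213 and 187 CPM (T and NK cell), 146 and 187 CPM (B and plasma cell) and 256 and 208 CPM (squamous epithelium). For endothelium they were 296 and 258 CPM, and for mast cell and basophil 89.9 and 100 CPM. Colon epithelium gave 225 and 164 CPM, and fibroblast 252 and 384 CPM. The 7 neutrophil markers in the table summed to 56.5 to 315 CPM in esophagus, 31 to 59.4 CPM in colon and 24.5 to 93.2 CPM in bone marrow, with none at 0 in every library of a tissue. Among them S100a9, a calcium-binding protein abundant in neutrophils, averaged 43.7 ± 46.4 CPM (SD, n = 7) in esophagus and 2.68 ± 1.8 CPM (SD, n = 4) in colon (log2 fold change 3.36, SE 1.45, edgeR adjusted p = 1). S100a8 and Ly6g were also higher on average in esophagus (45.2 and 17.5 CPM, against 4.07 and 7.02 CPM in colon). The averages of Ltf, Mpo, Camp and Ngp were 14.9, 5.39, 2.41 and 0.629 CPM in esophagus and 15.1, 11.7, 4.4 and 3.69 CPM in colon. The 8 dendritic cell markers summed to 311 to 876 CPM in esophagus and 258 to 330 CPM in colon. H2-Ab1, a chain of MHC class II, rose in esophagus over colon by 3.21 (SE 0.72, edgeR adjusted p = 0.0356), from an average of 22.5 CPM to 288 CPM. The other 3 tested dendritic cell markers, Clec9a, Xcr1 and Zbtb46, had values of 0.48, 0.09 and -0.59 (edgeR adjusted p = 1 for each). The 5 monocyte markers summed to 297 to 734 CPM and 316 to 405 CPM, and the 10 macrophage markers to 176 to 515 CPM and 189 to 229 CPM, in esophagus and colon, and the median log2 fold changes of their tested genes were -0.05 and -0.46. Their part in the Cxcl2, Il1b and Nfkbia values was not tested.

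Across all members, none was called by edgeR at an adjusted p under 0.05 in any tissue comparison. The filter on low counts left 23 of the 54 members for testing, and 31 were not tested. For esophagus against bone marrow, 0 of 23 members and 0.83% of all genes were called. At an unadjusted p under 0.05 there were 2 members, Nfkbia and Sod2, against 4.59% of all genes, and DESeq2 and limma voom called 0 members against 1.03% and 0.232%. For colon against bone marrow, 0 members and 0.434% of all genes were called. Cxcl2, Il6 and Sod2 had an unadjusted p under 0.05 there, against 2.11% of all genes, and DESeq2 and limma voom called 0 of 14 and 0 of 23 members against 1.58% and 1.61%. For esophagus against colon, 0 members and 0.0869% of all genes were called. Cxcl2, Il1b and Nfkbia, 3 of 23, had an unadjusted p under 0.05, against 2.66% of all genes, and DESeq2 called 1 member (Cxcl2) against 0.106% of all genes and limma voom 0 against 0.0386%. The 3 comparisons share libraries in pairs and are not independent of each other.

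The median log2 fold change of the 23 tested members was 0.31 for esophagus over bone marrow, beside -0.18 over all genes. It was -0.39 for colon over bone marrow, beside 0.02, and 0.30 for esophagus over colon, beside -0.21. With library totals in place of TMM scaling, the all-gene medians were 0.21, 0.23 and -0.03 and the member medians 0.76, -0.12 and 0.57. Between esophagus and colon, all 4 tested interleukins (Il1b, Il1rn, Il6 and Il16) had a fold change above 0, with Il1rn at 0.07. So did 4 of 5 TNF, colony-stimulating and growth factors, against 3827 of 10357 genes. The 7 tested feedback and target genes had 2 above 0 and a median of -0.09. None of these members passed the edgeR test. The untested interleukins all averaged lower in esophagus than in colon. Il1a, Il10, Il13, Il27, Il33 and Ebi3 averaged 2.9, 6.42, 0, 10.5, 16.4 and 0.385 CPM in esophagus. In colon they averaged 21.6, 10.9, 5.79, 13.6, 20.9 and 6.11 CPM. Tnf, Lif and Areg, also untested, averaged 22.2, 4.36 and 7.3 CPM in esophagus and 21.4, 37.4 and 14.3 CPM in colon. The sign of Il16 and Traf1 (esophagus against bone marrow), of Hbegf, Tgfa and Traf1 (colon against bone marrow) and of Cflar, Cxcl12 and Traf1 (esophagus against colon) changed with the scaling used.

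**Figure D3:**
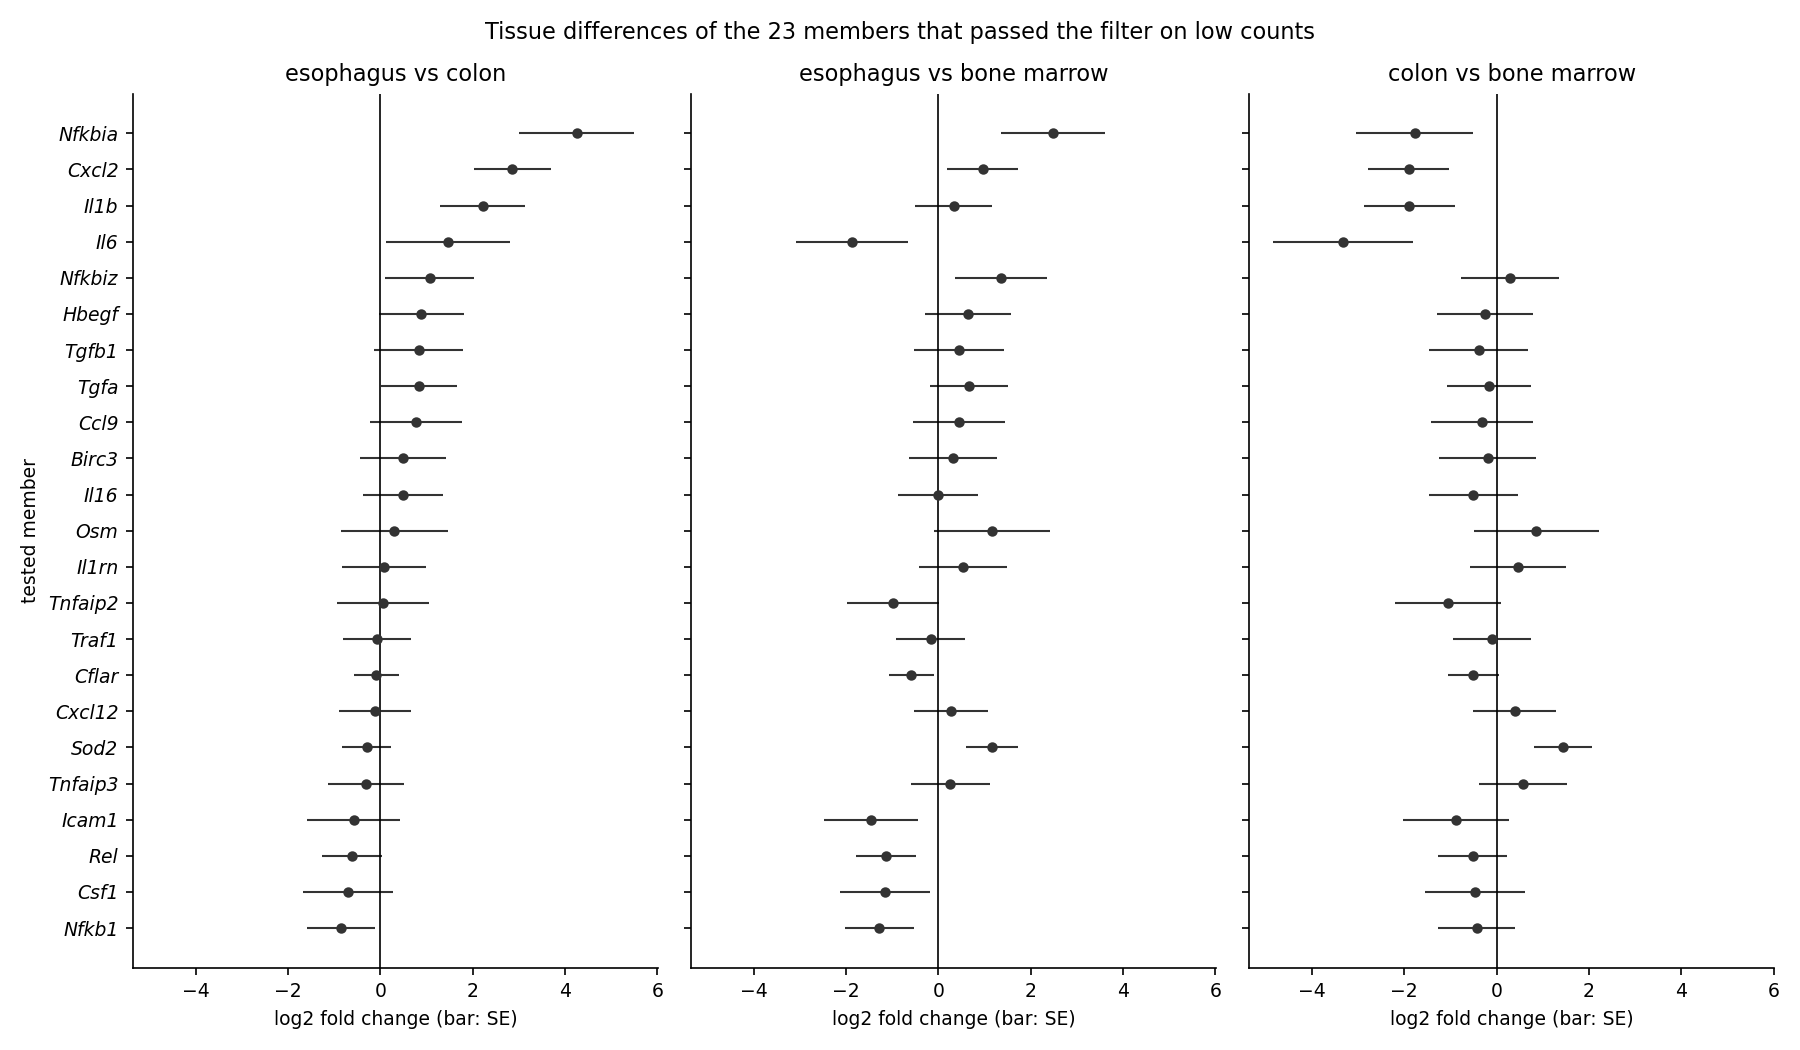
Log2 fold changes (x axis, TMM scaling, edgeR fit over 15 libraries) of the 23 tested members in the 3 tissue comparisons, with bars for the SE, ordered by the esophagus over colon value. Nfkbia (4.25), Cxcl2 (2.86) and Il1b (2.22) lie farthest to the right for esophagus over colon, and none of the points passed an adjusted p of 0.05.

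Among the other interleukins, Il6, a cytokine of the acute phase response, was carried by single libraries. Its bone marrow values were 10.6, 635, 45.4 and 32.4 CPM in mice 5, 6, 7 and 8, its colon values 5.77, 22, 30.6 and 27.8 CPM, and its esophagus values 0, 16.2 and 258 CPM (lowest, median and highest). The bone marrow library of mouse 6 gave 120 of 258 Il6 counts (46.5%), and the remaining bone marrow libraries overlapped with colon. The colon against bone marrow log2 fold change of -3.33 (SE 1.51, edgeR adjusted p = 1) was -0.50 without that library. It passed the test without bone marrow mouse 5, 7 or 8 (adjusted p = 0.0215, 0.0233 and 0.0234). The esophagus against bone marrow value of -1.87 (SE 1.22) became 0.87 without mouse 6. Il1a, the interleukin 1 that acts as an alarm signal from damaged cells, was higher in every colon library (30.8, 17.6, 23.4 and 14.7 CPM in mice 5 to 8) than in every bone marrow library (10.6, 10.6, 10.5 and 4.05 CPM). These bone marrow values rest on 2, 2, 3 and 1 counts, and the colon value of mouse 6 on 4. In esophagus Il1a was at 0 in 5 of 7 libraries and reached 17.6 CPM. Ebi3, a subunit of dimeric cytokines including that formed with Il27, had 13 counts in all, 9 of them (69.2%) in the colon library of mouse 7. It was at 0 in all bone marrow libraries and had a single count in esophagus. Il13, a type 2 cytokine, was at 0 in all 7 esophagus libraries and had 12 counts over the remaining 8 libraries.

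Of the growth factors, Lif, a cytokine of the Il6 family, was higher in every bone marrow library (42.3, 42.3, 34.9 and 20.3 CPM in mice 5 to 8) than in every esophagus library, where 5 of 7 were at 0 and the highest was 18.9 CPM. Its colon values of 26.9, 30.8, 73.8 and 18 CPM overlapped with both. The filter removed Lif from testing. The floor of its count of 0 was 21.2 CPM in the esophagus of mouse 1 and 33.7 CPM in that of mouse 5. Both lie above the lowest bone marrow value. Areg, an epidermal growth factor receptor ligand, was concentrated in a single library. The colon library of mouse 8 held 34 of its 46 counts (73.9%), and 11 libraries were at 0. That colon library also had the mitochondrial share of 7.52%, whose part in the Areg value was not tested. Tgfa and Hbegf, ligands of the same receptor family, averaged 104 ± 92.3 CPM (SD, n = 7) and 74.6 ± 31.5 CPM (SD, n = 7) in esophagus. In colon they averaged 51.1 ± 25.4 CPM (SD, n = 4) and 32.9 ± 10.4 CPM (SD, n = 4), and neither difference passed the edgeR test (0.83, SE 0.82, and 0.89, SE 0.92, on the log2 scale, adjusted p = 1 for each). Tnf was at 0 in 6 libraries and reached 70.4 CPM in the esophagus of mouse 7.

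The CC chemokine genes had few counts, and 1 of 11, Ccl9, passed the filter. Most sit together, 8 of 11 on chromosome 11, as do 5 of 7 CXC chemokine genes on chromosome 5. Ccl2, which attracts monocytes, had the highest mean percentile of the CC chemokines and measured 52.8, 15.9, 0 and 12.2 CPM in bone marrow, 15.4, 17.6, 27 and 24.5 CPM in colon, and 0, 18.9 and 98.8 CPM (lowest, median and highest) in esophagus. The tissues overlapped throughout. Ccl24, an eotaxin, was at 0 in all esophagus libraries and at 21.1, 15.9, 10.5 and 12.2 CPM in bone marrow. The bone marrow values rest on 3 or 4 counts per library. The floor of a count of 0 was 8.08 CPM in the deepest esophagus library, below every bone marrow value, and up to 35 CPM in the others. Ccl11, the other eotaxin, had 29 counts, 17 of them (58.6%) in the colon library of mouse 5. Summed over the CC chemokines, esophagus libraries ranged from 35 to 409 CPM and enclosed the ranges of colon (88.2 to 129 CPM) and bone marrow (106 to 148 CPM).

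Among the NF-kB subunits, Rel had a count in all but the esophagus library of mouse 1. It measured 84.5, 185, 171 and 146 CPM in bone marrow, 137, 88, 113 and 121 CPM in colon, and 0, 69.1 and 174 CPM (lowest, median and highest) in esophagus. Nfkb1, which encodes the precursor of the p50 subunit, measured 52.8, 84.6, 217 and 146 CPM in bone marrow and 104, 74.8, 131 and 96.3 CPM in colon, and it was at 0 in 3 of 7 esophagus libraries with a highest value of 128 CPM. Both were lower on average in esophagus than in bone marrow, by log2 fold changes of -1.13 (SE 0.65) and -1.28 (SE 0.74), and neither passed the edgeR test (adjusted p = 0.999 for each). The esophagus library of mouse 1 had no count on any of the 8 NF-kB subunit and IkB genes, while it held the highest Cxcl2 value of the 15 libraries. That library was sparse, with 37 of the 54 members at 0, a floor of 21.2 CPM and a mitochondrial share of 3.87%.

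Sod2, a mitochondrial superoxide dismutase induced by NF-kB, was the only tested member whose libraries did not overlap between colon and bone marrow. It measured 133, 229, 130 and 335 CPM in colon and 89.8, 31.7, 94.4 and 64.8 CPM in bone marrow. In esophagus it spread from 61.3 to 337 CPM with a median of 187 CPM. The log2 fold changes were 1.44 (SE 0.62, edgeR adjusted p = 1) for colon over bone marrow and 1.16 (SE 0.57, edgeR adjusted p = 0.999) for esophagus over bone marrow. The highest colon value came from mouse 8, the library of high mitochondrial share, and colon over bone marrow was 0.98 (SE 0.52) without the 3 libraries of high mitochondrial share. Cflar, an inhibitor of death receptor signalling, had the most counts of the members, and its libraries overlapped between all tissues, with 195 ± 96.1 CPM (SD, n = 7) in esophagus, 189 ± 53.1 CPM (SD, n = 4) in colon and 226 ± 105 CPM (SD, n = 4) in bone marrow. Icam1, an adhesion molecule for leukocytes, measured 73.9, 31.7, 48.9 and 48.6 CPM in bone marrow and 40.4, 8.8, 54 and 21.2 CPM in colon. Its esophagus values were 0, 4.93 and 76.7 CPM (lowest, median and highest), with a log2 fold change against bone marrow of -1.46 (SE 1.02, edgeR adjusted p = 0.999).

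Groups of libraries that did not overlap were counted among genes with a mean of at least 10 CPM in the higher tissue. Bone marrow lay above esophagus for 2 of 42 members (Lif and Ccl24) against 2.04% of all such genes, and colon above bone marrow for 2 of 44 (Il1a and Sod2) against 4.63%. No member lay wholly above in the other directions, for which all genes gave 0.0991% (esophagus above bone marrow), 1.98% (bone marrow above colon), 0.0441% (esophagus above colon) and 2.48% (colon above esophagus). These member counts lay near the share of all genes.

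Pooled over the 54 members, esophagus libraries held 2631 ± 612 CPM (SD, n = 7), colon libraries 1848 ± 147 CPM (SD, n = 4) and bone marrow libraries 1962 ± 330 CPM (SD, n = 4). Every esophagus library (2050 to 3677 CPM) lay above every colon library (1712 to 1988 CPM), and the bone marrow range of 1632 to 2417 CPM overlapped with both. With TMM-scaled totals the separation was lost, with 2174 to 3407 CPM in esophagus and 2218 to 2701 CPM in colon. The means were then 2965 CPM in esophagus, 2485 CPM in colon and 3020 CPM in bone marrow, so that bone marrow no longer lay below esophagus. Cflar, Sod2 and Rel made up 9.67%, 8.48% and 5.63% of all member counts. Without them, and on library totals, esophagus (1587 to 3163 CPM) lay above colon (1166 to 1506 CPM). Their removal was not tried with TMM-scaled totals, where the separation was lost. By role, CXC chemokines summed to 225 to 584 CPM in esophagus against 176 to 261 CPM in colon, and the NF-kB subunits and IkB proteins to 0 to 1389 CPM against 260 to 375 CPM. The SD over esophagus libraries exceeded that over colon libraries for all 6 roles.

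**Figure D4:**
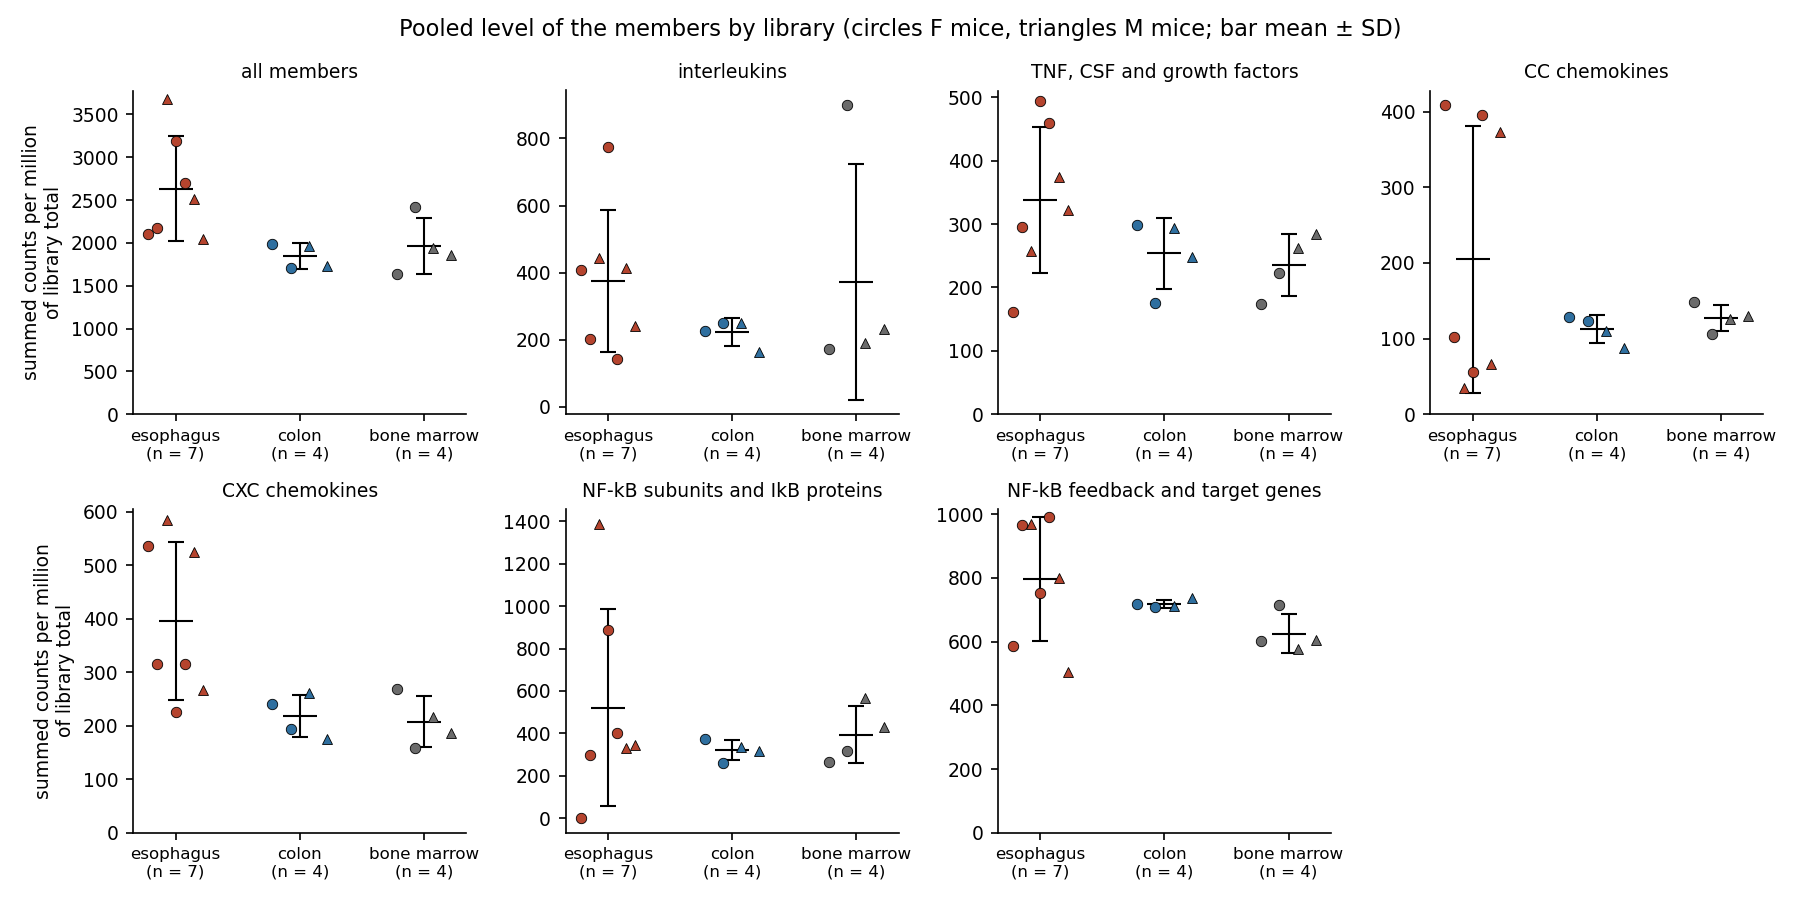
Summed CPM of the library total (y axis, linear) over all 54 members and over each of the 6 roles, by tissue, with circles for F mice, triangles for M mice and bars for mean ± SD. For all members the esophagus libraries start at 2050 CPM, above the highest colon library at 1988 CPM, and for each role the esophagus libraries spread more widely than the colon libraries.

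Sex or cage moved no member past the threshold. In a limma voom fit with mouse as a random block, 0 of 23 members were called between M and F mice, against 0.492% of all genes, and 0 had an unadjusted p under 0.05, against 1.99%. An edgeR test of whether tissue differences depended on sex called 0 members, against 0.0483% of all genes, and gave an unadjusted p under 0.05 for 2 members, against 2.18%. These were Birc3, an inhibitor of apoptosis, and Il6 (edgeR adjusted p = 1 for each). The Il6 esophagus over colon value was 2.82 (SE 1.82) in F and -0.87 (SE 1.64) in M mice. The highest Il6 libraries, esophagus of mice 1 and 5 and bone marrow of mouse 6, were all from F mice.

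Receptors and signalling genes of the same pathways were also without calls. None of 15 tested cytokine receptors (25 listed), 6 tested chemokine receptors (15 listed) or 15 tested genes upstream of NF-kB (27 listed) passed the edgeR test in any tissue comparison. Il1rap, the shared subunit of interleukin 1 family receptors, measured 126 to 187 CPM in colon and 52.9 to 121 CPM in bone marrow, without overlap (log2 fold change 0.54, SE 0.64, edgeR adjusted p = 1). Il18r1, a receptor chain for Il18, was at 34.6 to 44 CPM in colon and at 0 to 26.9 CPM in esophagus. Ripk2, a kinase that links NOD receptors to NF-kB, was at 0 to 2.69 CPM in esophagus, below every colon (4.4 to 50 CPM) and bone marrow library (4.05 to 52.4 CPM). The Ripk2 values of 2.69, 4.4 and 4.05 CPM are each a single count. The floor of a count of 0 was 8.08 to 35 CPM over the esophagus libraries, above the lowest Ripk2 values of colon and bone marrow. An absence of Ripk2 from esophagus cannot be read from these values. Il18r1 and Ripk2 had too few counts to be tested.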

How the data were processed

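The authors deposited 1 table of raw counts for 15 libraries with gene symbols and Ensembl identifiers. Every value in it was a whole number. Per the labels' protocols, the Ovation RNA-seq System V2 amplified the RNA before an NEB library preparation, so reads are not independent molecules. Limma 3.50.3 is named, without its use, in the submitters' processing notes. The sources used here do not give the aligner, counter or build, nor the handling of reads shared by gene copies.

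Members, roles and gene lists were chosen with earlier results of these data known. Genes were filtered with filterByExpr (minimum count 10, minimum total 15), which kept 10357, scaled by TMM and tested in 1 edgeR quasi-likelihood fit over all 15 libraries with tissue as the only term (12 residual degrees of freedom, biological coefficient of variation 0.817). P-values were adjusted by Benjamini-Hochberg over all genes tested, with a threshold of 0.05. SEs are those of log2 fold changes. M and F mice were compared with limma voom, with mouse as a random block. Levels are CPM, counts scaled to a library total of 1000000. Exonic lengths came from GENCODE M21, to which 26299 identifiers matched. Promoters came from RefSeq, and the kB motif was searched on both strands after narrower spellings of it had been looked at in the same promoters. R 4.3.3, edgeR 4.0.16, limma 3.58.1, DESeq2 1.42.0, Python 3.11.15, numpy 2.4.6 and pandas 2.3.3 were used. The fits were tested on simulated data.

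Members named with values in every library are those with the largest fold changes, the highest levels, groups without overlap or the largest share of counts in 1 library. Some results are not reported here. Libraries of the same mouse number come from the same animal, per the labels. Their deviations from the group means correlated at -0.0198 to 0.0368 over 12 same-mouse pairs (mean 0.017) and at -0.0623 to 0.0698 over 60 others (mean -0.00317). Separate libraries are separate mice within a tissue. Alternatives were other scalings, filters and tools, the mouse block, each sex alone, mice 5 to 8 alone and leaving out each library.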

Additional observations from a re-analysis of the deposited data

Results flagged for a closer look

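Of 51 groups of libraries, 13 had a library standing apart from the rest of its tissue, where chance gives about 1 in 20. The 51 include groups at 0 in every library, Ccl24 in esophagus and Ebi3 in bone marrow, which could not be tested. The groups were those of the members named in the text, some of which were named for having most of their counts in 1 library, so the number cannot be read against that share. For Ebi3 and Areg in esophagus and Areg in bone marrow, the other libraries were at 0.

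Among interleukins, Il1a stood at 17.6 CPM in the esophagus of mouse 7, above the other esophagus libraries. It stood at 4.05 CPM, a single count, in the bone marrow of mouse 8, below the other bone marrow libraries. Il6 stood at 635 CPM in the bone marrow of mouse 6, and Ebi3 at 2.69 CPM in the esophagus of mouse 2, which is a single count. Areg stood out in all 3 tissues, at 51.1 CPM in the esophagus of mouse 8 and 55.5 CPM in the colon of mouse 8. In the bone marrow of mouse 5 it stood at 5.28 CPM, a single count. Both higher Areg values came from the same animal.

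Among chemokines, Ccl2 stood at 98.8 CPM in the esophagus of mouse 1, Ccl11 at 32.7 CPM in the colon of mouse 5 and Ccl24 at 22 CPM in the colon of mouse 6. Nfkbia stood at 1004 CPM in the esophagus of mouse 3 and at 22 CPM in the colon of mouse 6. Cflar was low in the colon of mouse 8, at 109 CPM. That library has a mitochondrial share of 7.52%, and the esophagus libraries of mice 1 and 3 have 3.87% and 2.84%. The part of these shares in the values was not tested.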

How the results depend on the processing

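The number of members called was 0 for esophagus against bone marrow under every alternative run. For esophagus against colon it was 1 with no filter on low counts (Nfkbia, log2 fold change 3.95, adjusted p = 0.0462, edgeR) and 1 with DESeq2 (Cxcl2). Leaving out 1 library at a time gave 0 to 0 calls for esophagus against bone marrow, 0 to 1 for colon against bone marrow (Il6), 0 to 1 for esophagus against colon (Nfkbia) and 0 to 0 for M against F mice. With mouse as a block, fixed or random, the count stayed at 0 in each tissue comparison. Pooled levels moved to 2485 CPM in colon and 3020 CPM in bone marrow with TMM-scaled totals, beside 2965 CPM in esophagus, which reversed the order of bone marrow and esophagus, and to 1338 CPM and 1519 CPM without the 3 members of most counts. Leaving out 1 library gave 2456 to 2727 CPM in esophagus, 1802 to 1893 CPM in colon and 1810 to 2072 CPM in bone marrow. Members above the median smell receptor gene numbered 21 with the longest transcript as length and 32 against autosomal coding genes, for 10 as reported.

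Signs changed for uncalled members. Esophagus against colon, Il6 was -0.87 in M mice, Sod2 was 0.10 with limma voom, 0.34 in F mice and 0.13 without the 3 libraries of high mitochondrial share, and Cflar was 0.12 with RLE scaling, 0.04 with library totals, 0.12 with DESeq2, 0.01 with mouse as a random block and 0.04 in mice 5 to 8. Nfkb1 was 0.00 in F mice for colon against bone marrow. Leaving out 1 library gave -2.48 to 0.87 for Il6 (esophagus against bone marrow), -0.52 to 0.13 for Sod2 and -0.34 to 0.06 for Cflar (esophagus against colon). The cause of these moves was not tested. No value could be had for Il6, Nfkbia and Icam1 with the filter at a minimum count of 20, for Nfkbia in mice 5 to 8 or without esophagus mouse 2, for Il6 without esophagus mouse 7 and for Icam1 in F mice, since the filter removed them. At a floor of 4.9 to 35 CPM per library, most chemokines lie too near 0 counts for differences to be seen.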
